A study of Mus musculus with 18 samples.

Results

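The spleens of ICR mice aged 10 weeks, of an outbred stock, gave 3 RNA libraries from a high fat diet (HFD) with control-FMT and 3 from the diet alone. All gene rows whose mean reached 1 FPKM in either group were taken, which gave 12661 of 19326 rows. FPKM scales fragments to transcript length and library size. FMT is read here as faecal microbiota transplantation, the transfer of gut microbes from a donor, and control-FMT as transfer from control donors. The diet is shared by both groups, and the labels set them apart by the transfer. No group with a transfer without donor microbes is labelled, so microbes and procedure cannot be told apart. Other groups of 3 libraries are used to place values: HFD with FMT from AOS donors (AOS-FMT), HFD with AOS, and control without the diet. These groups and a group with AOS alone also enter the gene test, where they add to its variance estimate and choice of rows. AOS-FMT is also compared directly with control-FMT and with HFD. AOS, given at 10 mg/kg per the labels, is read here as alginate oligosaccharide. The labels name neither the animals nor the hour, day or batch of collection. The 3 libraries of a group may therefore not be separate animals, and p-values measure the spread between these libraries.

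Of the 12661 genes, 12358 were at 1 FPKM or more in both groups, 142 only with control-FMT and 161 only on HFD. The threshold left 115 genes inside it with a higher mean under 1.1 FPKM and 140 rows outside it at 0.9 to 1. The libraries held spleen transcripts. *Cd79a*, a chain of the B cell receptor, was at 878.11 to 1024.9 FPKM in control-FMT and 878.13 to 1090.65 in HFD libraries. *Cd3e* of the T cell receptor was at 37.53 to 50.95 FPKM in control-FMT and 38.61 to 45.4 in HFD libraries. *Spic*, a transcription factor of red pulp macrophages, was at 40.65 to 43.95 FPKM in control-FMT and 43.18 to 69.05 in HFD libraries. The band 3 gene *Slc4a1* of red cells was at 182.58 to 264.06 FPKM with control-FMT and 135.53 to 335.54 on HFD. Haemoglobin transcripts took 15.4%, 18.4% and 18.8% of all FPKM in the control-FMT libraries, against 27.4%, 11% and 10.8% in the HFD libraries. The means differed by 1.2 points with an exact permutation p of 1 (two-sided, smallest possible 0.1). HFD replicate 1 stood above the other HFD libraries in this share. Absolute depth is unknown: step sizes read from low values differed between 2 windows in 2 of 18 libraries.

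The circadian clock is a transcription loop present in most cells. The activators CLOCK and ARNTL bind E-boxes and switch on *Per* and *Cry* genes, whose proteins inhibit them, and the nuclear receptors *Nr1d1* and *Nr1d2*, which repress *Arntl*. *Dbp*, *Tef* and *Hlf* code for transcription factors of the PAR bZIP family that act on D-boxes, and their transcripts swing strongly over the day in many tissues. The spleen is a filter of blood and a lymphoid organ, with a red pulp of macrophages and red cells and a white pulp of B and T cells.

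Promoter windows are shown for *Dbp*, the clock gene past the test, and for 3 clock genes that hold an E-box. They run from 250 bases before to 50 after the start (RefSeq, GRCm38.p6), with the E-box CACGTG in capitals. *Tef* has 2 start sites.
Dbp, chr7:45704997-45705296, plus strand: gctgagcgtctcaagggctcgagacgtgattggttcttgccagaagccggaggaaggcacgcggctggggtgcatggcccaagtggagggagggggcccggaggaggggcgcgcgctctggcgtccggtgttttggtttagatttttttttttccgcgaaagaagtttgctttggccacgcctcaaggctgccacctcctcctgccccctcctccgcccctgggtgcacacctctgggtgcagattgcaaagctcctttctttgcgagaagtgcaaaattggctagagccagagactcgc
Ciart, chr3:95882179-95882478, minus strand: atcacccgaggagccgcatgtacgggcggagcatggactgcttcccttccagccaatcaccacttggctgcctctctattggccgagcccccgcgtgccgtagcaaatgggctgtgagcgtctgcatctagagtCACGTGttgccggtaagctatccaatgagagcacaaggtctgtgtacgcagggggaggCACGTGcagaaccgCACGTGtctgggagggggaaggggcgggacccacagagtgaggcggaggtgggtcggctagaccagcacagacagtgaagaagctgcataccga
Tef, chr15:81802423-81802722, plus strand: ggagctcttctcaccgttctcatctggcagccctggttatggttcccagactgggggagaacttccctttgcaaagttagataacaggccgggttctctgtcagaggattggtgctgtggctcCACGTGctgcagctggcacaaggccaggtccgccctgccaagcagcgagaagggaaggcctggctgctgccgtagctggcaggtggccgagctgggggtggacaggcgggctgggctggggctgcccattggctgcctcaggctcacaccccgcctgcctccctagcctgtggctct
Tef, chr15:81811164-81811463, plus strand: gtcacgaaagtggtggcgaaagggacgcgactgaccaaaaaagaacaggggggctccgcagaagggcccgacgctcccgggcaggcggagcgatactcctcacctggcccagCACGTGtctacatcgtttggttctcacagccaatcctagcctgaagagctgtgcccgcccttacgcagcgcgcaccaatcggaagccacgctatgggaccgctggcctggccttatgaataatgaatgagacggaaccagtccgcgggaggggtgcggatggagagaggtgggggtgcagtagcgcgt
Bhlhe41, chr6:145865371-145865670, minus strand: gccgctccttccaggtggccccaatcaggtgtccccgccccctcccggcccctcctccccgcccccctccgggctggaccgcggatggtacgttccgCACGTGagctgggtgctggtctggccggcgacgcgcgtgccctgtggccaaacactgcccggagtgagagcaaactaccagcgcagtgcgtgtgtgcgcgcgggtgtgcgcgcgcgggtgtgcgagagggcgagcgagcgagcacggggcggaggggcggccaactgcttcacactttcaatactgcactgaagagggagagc
The window of *Tmsb15b1*, the other gene past the test, is the same as that listed for *Tmsb15l*.
Tmsb15b1, chrX:136976825-136977124, minus strand: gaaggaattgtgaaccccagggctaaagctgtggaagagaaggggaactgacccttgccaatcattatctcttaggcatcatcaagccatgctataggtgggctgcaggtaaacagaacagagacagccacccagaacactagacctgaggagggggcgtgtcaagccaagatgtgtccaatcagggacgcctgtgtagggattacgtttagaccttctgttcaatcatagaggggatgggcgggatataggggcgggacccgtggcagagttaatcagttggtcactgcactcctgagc

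In limma on log2(FPKM + 1), fitted to all 18 libraries with Benjamini-Hochberg adjustment, 2 genes passed an adjusted p of 0.05, both higher with control-FMT. They were *Dbp* and *Tmsb15b1*, 0.0154% of 12969 genes tested. No gene passed in the lower direction. At an unadjusted p under 0.05 there were 601 genes (4.63%), 349 of them higher and 252 lower. The lowest adjusted p after the 2 calls was 0.596. In 1318 genes (10.2%) the 3 libraries of each group did not overlap, 593 higher and 725 lower. The members' median log2 difference was −0.016, with the 5th percentile at −0.23 and the 95th at 0.25. Members were higher in 5649 cases and lower in 7012.

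**Figure D1:**
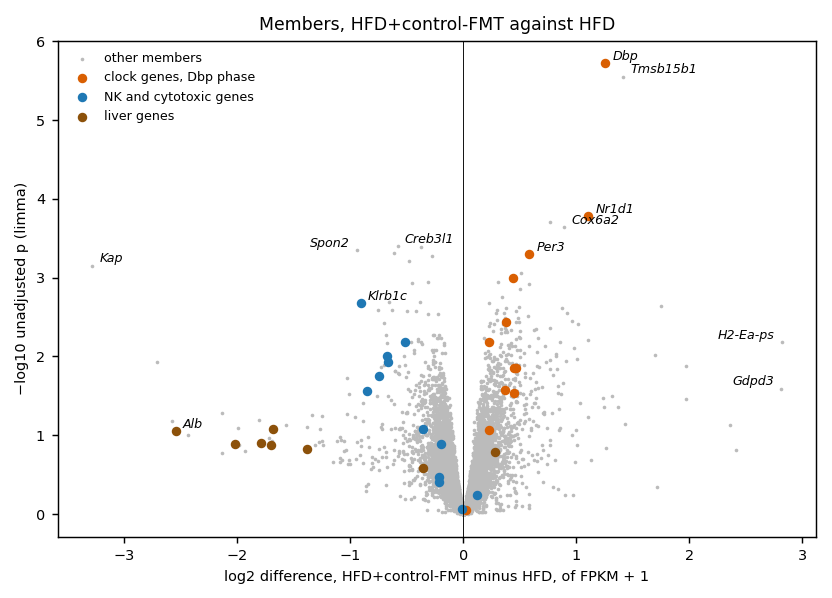
Each point is a member gene, with the log2 difference of FPKM + 1 (HFD+control-FMT minus HFD, 3 libraries each) on the x axis and −log10 of limma's unadjusted p on the y axis. *Dbp* and *Tmsb15b1* stand highest, clock genes of the *Dbp* phase lie to the right, and most liver genes lie to the left at low −log10 p.

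*Dbp* (chr7:45705088-45710203, plus strand, GRCm38) had 17.96, 21.41 and 16.34 FPKM with control-FMT, against 7.36, 7.14 and 6.94 on HFD. Every control-FMT library was above every HFD library. The log2 difference was 1.26 (SE 0.17, n = 3 each, limma adjusted p = 0.0181). Leaving out 1 of these 6 libraries kept the difference at 1.15 to 1.34, but the adjusted p then ran from 0.0341 to 0.193. Of these 6 fits, it passed only without control-FMT replicate 3. It was 0.0781 without HFD replicate 1, 0.0965 without HFD replicate 2, 0.0572 without HFD replicate 3, 0.139 without control-FMT replicate 1 and 0.193 without control-FMT replicate 2.

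Of 12 clock genes that peak near *Dbp*, all 12 were higher with control-FMT. Their median log2 difference was 0.45 against −0.016 over all members. With no hour in the labels, hour of collection and transfer cannot be told apart for these values. Only *Dbp* passed the test, while 10 were at an unadjusted p under 0.05 (2.69% of tested genes in this direction) and 10 did not overlap (4.57%). *Nr1d1*, a repressor of *Arntl*, had 10.02, 8.46 and 9.61 FPKM with control-FMT, against 4.06, 4.45 and 3.04 on HFD. Its groups did not overlap, and its log2 difference of 1.1 (SE 0.22) had a limma adjusted p of 0.596. *Per3*, of the inhibitory arm, had 3.10, 4.38 and 3.79 FPKM with control-FMT, against 2.21, 1.67 and 2.67 on HFD. The difference of *Per3* was 0.58 (limma adjusted p = 0.626).

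The PAR bZIP relatives lay in the same direction, with no overlap between groups. *Hlf* had 1.05, 1.49 and 1.23 FPKM with control-FMT, against 0.76, 0.65 and 0.56 on HFD. *Tef* had 15.59, 18.27 and 14.92 FPKM with control-FMT, against 11.67, 12.24 and 13.13 on HFD. The repressor gene *Ciart* had 2.56, 2.63 and 2.81 FPKM with control-FMT, against 1.87, 1.60 and 2.02 on HFD. These 3 differed by 0.44, 0.37 and 0.38 on the log2 scale without passing. *Nr1d2* (0.45), the repressor *Bhlhe41* (0.47), *Cry2* (0.22) and the deubiquitinase *Usp2* (0.45) also had groups that did not overlap. *Per2* (0.23) and *Per1* (0.02) overlapped, and the sign of *Per1* turned when HFD replicate 1 or control-FMT replicate 3 was left out.

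Genes of the opposite phase had 5 members, 1 higher and 4 lower, with a median of −0.17 and none past the test. *Arntl* had 7.78, 8.53 and 8.80 FPKM with control-FMT, against 9.08, 9.77 and 10.75 on HFD. The groups did not overlap, and the difference was −0.21 (limma adjusted p = 0.999). *Cry1* differed by −0.18, *Clock* by −0.09 and *Nfil3*, a repressor that binds D-boxes, by 0.12.

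**Figure D2:**
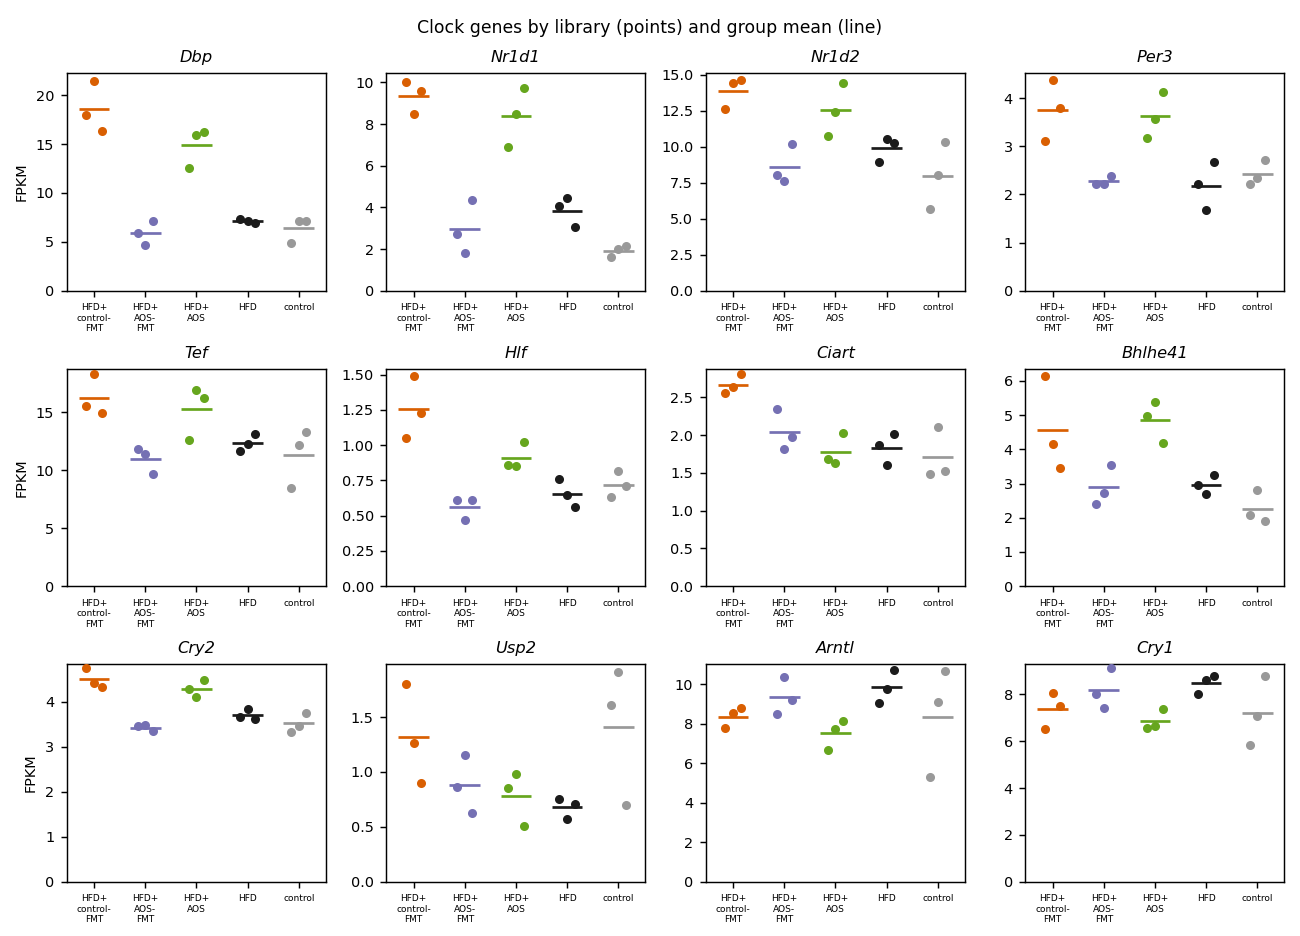
FPKM (y axis, linear from 0) of 12 clock genes in 5 groups of 3 libraries (x axis), with each library as a point and the group mean as a line. *Dbp* is at 16.34 to 21.41 FPKM with control-FMT, 12.53 to 16.24 on HFD with AOS and 6.94 to 7.36 on HFD.

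The other groups place these levels. *Dbp* had 5.95, 4.68 and 7.12 FPKM with AOS-FMT, 12.53, 15.90 and 16.24 on HFD with AOS, and 4.89, 7.12 and 7.15 in controls. The HFD with AOS libraries lay between the control-FMT and HFD libraries. *Nr1d1* had 2.73, 1.79 and 4.37 FPKM with AOS-FMT, 6.90, 8.48 and 9.72 on HFD with AOS, and 1.61, 1.99 and 2.13 in controls. Against AOS-FMT, a comparison that shares the control-FMT libraries, limma called 1 gene (0.00771%), *Dbp*, with a log2 difference of 1.51 (adjusted p = 0.00245), and 1356 genes were at an unadjusted p under 0.05 (10.5%). AOS-FMT against HFD gave no call in limma (lowest adjusted p 0.103), with 1770 genes at an unadjusted p under 0.05 (13.6%).

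Of the 12 clock genes, 11 had a RefSeq promoter window, and 4 of these 11 held CACGTG: *Per1*, *Tef*, *Ciart* with 3 copies, and *Bhlhe41*. Over 32851 promoter windows the share was 7.15%. The shares over all promoters count single windows, while a gene with several windows counted if any of them held the motif. The D-box TTATGCAA was found in 1 window, that of *Per1* (0.74% of all promoters), and the motif AGGTCA in those of *Nr1d2* and *Per1* (16.26%). None of the 3 was in the *Dbp* window. Among 5 opposite-phase genes with a window, 1 held the E-box (*Cry1*), 0 the D-box and 3 AGGTCA (*Arntl*, *Clock* and *Nfil3*). Both strands were searched, and a match is a description only. Of 14 motifs searched, these 3 are described.

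*Tmsb15b1* (chrX:136974022-136976874, minus strand), of the actin-binding thymosin beta family, had 2.27, 2.53 and 2.03 FPKM with control-FMT, against 0.25, 0.49 and 0 on HFD. The groups did not overlap, and the log2 difference was 1.41 (SE 0.20, limma adjusted p = 0.0181). *Tmsb15l* (chrX:136954988-136976869) overlaps it, so reads may be split between them. *Tmsb15l*, picked for this overlap, had 3.77, 7.17 and 3.96 FPKM with control-FMT, against 1.34, 1.84 and 1.93 on HFD (limma adjusted p = 0.945). Adding 0.1 instead of 1 to the FPKM took *Tmsb15b1* to 3.11 with an adjusted p of 0.123, and the 6 libraries alone gave 0.124. Of the 6 fits without 1 library of the compared groups, the call held only without HFD replicate 2. The adjusted p was 0.0798 without HFD replicate 1, 0.0733 without HFD replicate 3, 0.139, 0.193 and 0.0534 without control-FMT replicates 1, 2 and 3.

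The rule for named genes took 10 further genes in the higher direction, none past the test. They include *Cox6a2*, a cytochrome oxidase subunit found in plasmacytoid dendritic cells, which had 11.95, 14.18 and 10.07 FPKM with control-FMT, against 7.27, 4.28 and 6.76 on HFD. Its log2 difference was 0.89 (limma adjusted p = 0.596). *Cygb*, a globin of fibroblast-like cells, had 20.22, 16.15 and 17.50 FPKM with control-FMT, against 11.99, 11.35 and 13.69 on HFD. The Groucho-family corepressor *Aes* (0.31), the Fanconi anaemia gene *Fancf* (0.34), the U1 splicing protein *Snrnp70* (0.22), the translation factor *Eif5a2* (0.49) and *Zfp771* (0.38) also did not overlap. *Rpl37rt* (0.88) is a retrogene of a ribosomal protein gene and could share reads with its parent.

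In the lower direction the 12 named genes did not pass either. *Spon2*, a secreted matrix protein, had 2.30, 1.59 and 3.22 FPKM with control-FMT, against 5.47, 5.15 and 5.46 on HFD (log2 difference −0.94, limma adjusted p = 0.626). *Creb3l1*, a transcription factor held in the endoplasmic reticulum membrane, had 2.94, 2.36 and 3.28 FPKM with control-FMT, against 5.07, 4.15 and 5.09 on HFD. *Chst10*, a sulfotransferase, had 9.44, 9.42 and 9.56 FPKM with control-FMT, against 11.32, 15.45 and 19.16 on HFD. The groups of these 3 did not overlap. The lysophosphatidic acid receptor *Lpar6* differed by −0.37, *Ttc7* by −0.28, the GTPase *Gpn1* by −0.31, and the mitochondrial enzymes *Aldh1b1* and *Oxsm* by −0.45 and −0.38.

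Natural killer (NK) and cytotoxic genes lay lower. Of 12 members 11 were lower, 6 at an unadjusted p under 0.05 (1.94% of tested genes in this direction), 6 without overlap (5.59%) and 0 past the test, with a median of −0.44. *Klrb1c*, the NK1.1 receptor, had 2.08, 1.85 and 1.2 FPKM with control-FMT, against 3.21, 2.91 and 6.75 on HFD. *Klrg1*, a receptor of mature cytotoxic cells, had 1.66, 1.30 and 1.70 FPKM with control-FMT, against 2.47, 2.75 and 2.71 on HFD. *Ncr1*, the NK receptor NKp46, had 6.13, 5.56 and 7.38 FPKM with control-FMT, against 7.2, 11.91 and 13.90 on HFD, and here the groups overlapped. Of 2 receptors outside the list, *Klra7* differed by −0.76 and *Klrb1b* by −0.65. Both belong to families of near-identical genes, as does *Klrb1c*, so the counting of these genes is uncertain. The list's summed level overlapped, at 268.35 to 357.93 FPKM with control-FMT and 309.65 to 397.72 on HFD. Its median was −0.22 with genes of at least 5 FPKM only. In bulk RNA, fewer cells of a type and less RNA per cell cannot be told apart.

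Plasmacytoid dendritic cells are a source of type I interferon. Of 8 of their genes 6 were higher, 3 at an unadjusted p under 0.05 (2.69% of tested genes in this direction) and 0 past the test, with a median of 0.22. Their summed level overlapped, at 658.58 to 851.26 FPKM with control-FMT and 551.08 to 917.02 on HFD. *Siglech*, their surface lectin, had 30.46, 24.68 and 24.33 FPKM with control-FMT, against 16, 12.03 and 23.03 on HFD. *Tcf4*, their lineage factor, had 28.71, 25.77 and 24.60 FPKM with control-FMT, against 19.79, 21.94 and 22.82 on HFD. Neither overlapped. Type I interferon response genes lay lower in 20 of 22 members, with a median of −0.33, 4 without overlap (5.59% of tested genes), none at an unadjusted p under 0.05 and none past the test. *Ifit1*, an RNA-binding effector, had 5.30, 3.34 and 3.94 FPKM with control-FMT, against 5.97, 5.26 and 7.47 on HFD. The groups of *Ifit1* overlapped by a narrow margin. *Ddx58*, the RIG-I sensor, differed by −0.29 and *Isg15* by −0.38.

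Germinal centre genes were higher in 8 of 9 members (median 0.44). Of these, 2 were at an unadjusted p under 0.05 (2.69% of tested genes), 0 without overlap (4.57%) and 0 past the test. *Rgs13*, a regulator of G protein signalling in germinal centre B cells, had 22.90, 18.55 and 8.73 FPKM with control-FMT, against 8.75, 7.22 and 8.90 on HFD. Control-FMT replicates 1 and 2 were high and replicate 3 lay among the HFD libraries. *Mef2b* had the same 2 high libraries, with 20.96, 16.05 and 5.32 FPKM with control-FMT, against 7.98, 4.71 and 6.79 on HFD. The list median was 0.22 without control-FMT replicate 1 and 0.74 without control-FMT replicate 3. Plasma cell genes were higher in 12 of 12 members (median 0.19, 0 past the test), and their median was 0.01 without control-FMT replicate 1, 0.31 without control-FMT replicate 3 and 0.32 without HFD replicate 3. *Pdcd1*, the PD-1 receptor, had 11.25, 5.95 and 3.07 FPKM with control-FMT, against 2.70, 3.35 and 4.10 on HFD.

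**Figure D3:**
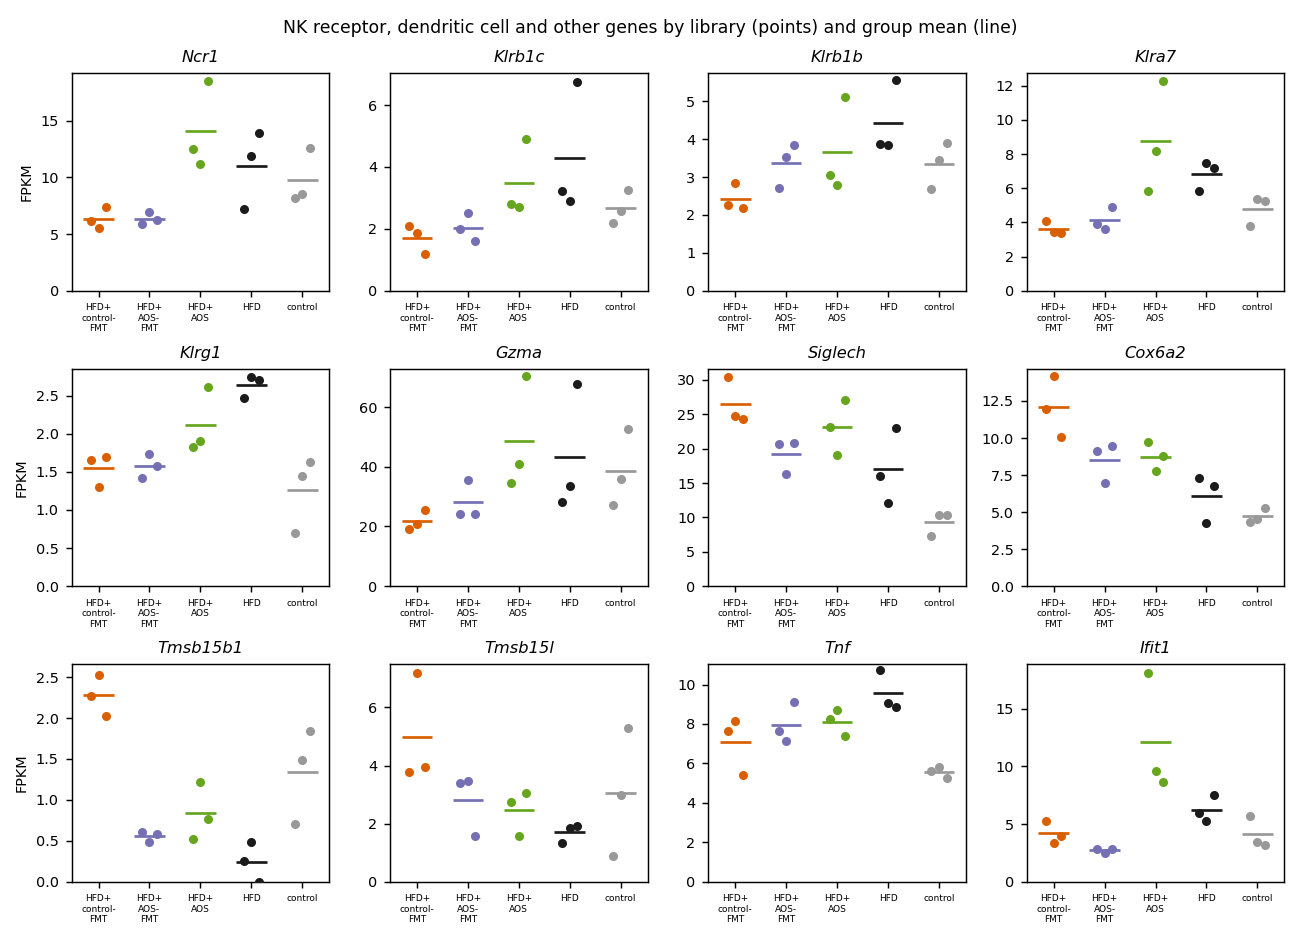
FPKM (y axis, linear from 0) of 12 NK, dendritic cell, thymosin and cytokine response genes in 5 groups of 3 libraries (x axis), with libraries as points and group means as lines. *Klrg1* is at 1.30 to 1.70 FPKM with control-FMT and 2.47 to 2.75 on HFD, and *Tmsb15b1* at 2.03 to 2.53 FPKM with control-FMT and 0 to 0.49 on HFD.

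Other immune and lipid genes gave single differences. *Tnf*, an inflammatory cytokine, had 7.64, 8.15 and 5.40 FPKM with control-FMT, against 10.75, 9.06 and 8.86 on HFD (log2 difference −0.40, limma adjusted p = 0.945). *Angptl4*, an inhibitor of lipoprotein lipase, had 8.84, 8.23 and 13.01 FPKM with control-FMT, against 19.76, 15.60 and 14.86 on HFD. The fatty acid oxidation enzyme *Cpt2* had 8.08, 8.21 and 9.55 FPKM with control-FMT, against 11.52, 10.46 and 10.69 on HFD. In none of these 3 genes did the groups overlap, and none passed the test. Of 14 members of the inflammatory cytokine and NF-kB list, which holds *Tnf*, 8 were higher and 6 lower. The median of that list was 0.02 and changed sign in 4 alternatives. Among PPAR targets and fatty acid oxidation genes, 14 of 18 members were lower with a median of −0.07, and −0.11 without control-FMT replicate 3. Erythroid genes were higher in 18 of 19 members with a median of 0.09 and 0 past the test. This median was −0.10, −0.03 and −0.06 without HFD replicate 2, HFD replicate 3 and control-FMT replicate 3, and 0.42, 0.16 and 0.17 without HFD replicate 1 and control-FMT replicates 1 and 2. *Trim10*, a gene of red cell maturation, differed by 0.19, and by −0.10 without HFD replicate 2.

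Macrophage genes gave no call, and their list medians rested largely on HFD replicate 3. Marginal zone macrophages, which take up blood-borne particles, had 4 of 5 members lower with a median of −0.44. The median was −0.03 without HFD replicate 3, −0.16 without control-FMT replicate 2, −0.73 without HFD replicate 1 and −0.72 without control-FMT replicate 3. *Cd209b*, their lectin SIGN-R1, had 2.36, 2.48 and 4.64 FPKM with control-FMT, against 3.76, 4.43 and 17.58 on HFD. The groups overlapped, and HFD replicate 3 was the high library. *Siglec1* (−0.44) and *Marco* (−0.48) had the same high library. Of 15 red pulp macrophage and iron recycling genes 11 were lower with a median of −0.21. This was −0.02 without HFD replicate 3, −0.11 without control-FMT replicate 2 and −0.32 without HFD replicate 1. *Slc40a1*, the iron exporter ferroportin, had 49.77, 48.09 and 70.79 FPKM with control-FMT, against 55.46, 73.17 and 97.14 on HFD, again with overlap.

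Genes that read microbial products had no member past the test. Of 17 pattern recognition genes 13 were lower, 1 at an unadjusted p under 0.05 (1.94% of tested genes) and 2 without overlap (5.59%). Their median was −0.16, and −0.09 without HFD replicate 3. Of 8 members among aryl hydrocarbon and microbial metabolite receptors 3 were higher and 5 lower, with a median of −0.02 that changed sign in 2 alternatives. B cell genes were lower in 10 of 12 members with a median of −0.15, which was −0.06 without HFD replicate 2 and −0.09 without control-FMT replicate 1. T cell genes were higher in 8 of 14 with a median of 0.01, which changed sign in 5 alternatives. Cell cycle genes were higher in 29 of 30 with a median of 0.12 and none at an unadjusted p under 0.05, and this median changed sign in 1 alternative. It was −0.002 without HFD replicate 2, 0.05 without control-FMT replicate 1, and 0.31, 0.07 and 0.19 without HFD replicate 1, HFD replicate 3 and control-FMT replicate 2. DNA replication genes were higher in 23 of 27 with a median of 0.09. That median was 0.017 without control-FMT replicate 1, 0.025 without HFD replicate 2 and 0.16 without HFD replicate 1.

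**Figure D4:**
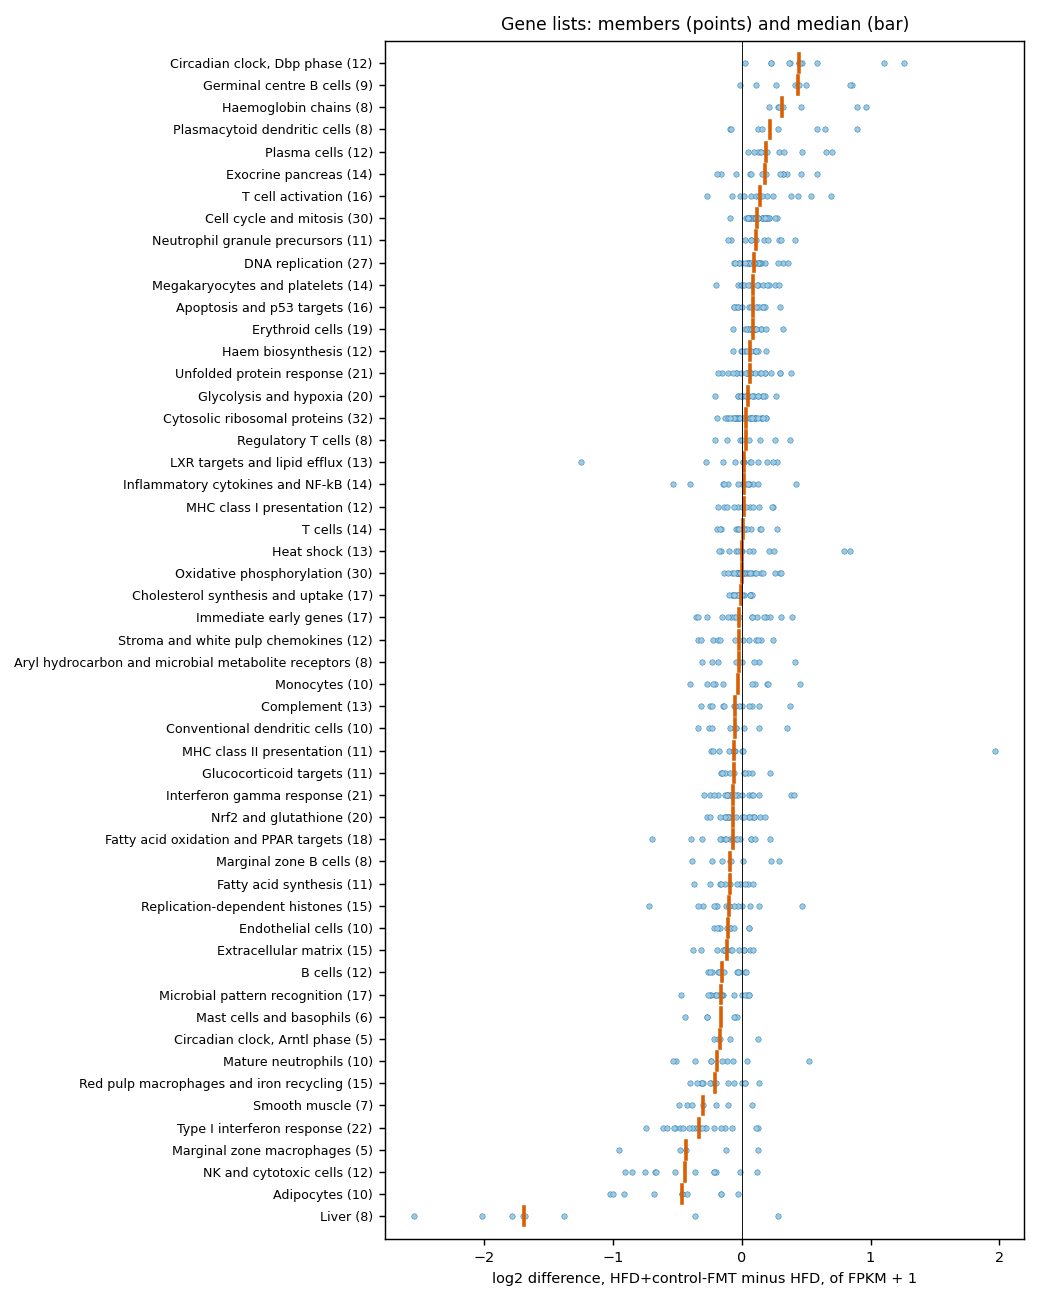
Log2 differences of FPKM + 1 (x axis, HFD+control-FMT minus HFD) of the members of each gene list with at least 5 members (y axis, member count in brackets), with members as points and the median as a bar. The clock list of the *Dbp* phase has the highest median, 0.45, and the liver list the lowest, −1.69.

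Transcripts of liver were among the widest differences. A bound of 1 on the log2 scale, set after values were seen, was passed by 69 members, 44 lower and 25 higher. Of the 44, 14 were *Mup* genes, which code for urinary proteins made in liver, and 6 were in the liver list. None of the 44 passed the test. *Alb*, serum albumin, had 1.01, 1.11 and 3.31 FPKM with control-FMT, against 65.51, 17.86 and 1.89 on HFD. HFD replicates 1 and 2 were high and replicate 3 lay among the control-FMT libraries. The *Mup* genes, a group chosen after values were seen and too alike to be counted apart, summed to 14.96, 9.08 and 35.0 FPKM with control-FMT, against 568.63, 143.59 and 18.64 on HFD. The liver list summed to 64.83 to 84.19 FPKM with control-FMT and 82.78 to 263.33 on HFD, with 7 of 8 members lower. Its median was −1.69, −0.84 without HFD replicate 1 and −2.49 without HFD replicate 3. With AOS-FMT *Alb* had 18.30, 166.26 and 20.38 FPKM. The part of liver transcripts in other results was not tested.

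*Kap*, an androgen-regulated gene of kidney, was listed at 0 in all 3 control-FMT libraries and had 27.13, 21.23 and 0.48 FPKM on HFD (limma adjusted p = 0.704). It had 0.15, 0 and 0 FPKM on HFD with AOS and 13.33, 20.06 and 20.97 FPKM in controls. Of 8 other kidney genes, picked after values were seen, none was above 0.25 FPKM in a control-FMT library or 0.9 in an HFD library. Fat cell genes were lower in 10 of 10 members with a median of −0.47, which was −0.03 without control-FMT replicate 1, −0.74 without replicate 2 and −0.75 without replicate 3 of that group. *Adipoq*, the adiponectin gene, had 3.79, 14.65 and 16.35 FPKM with control-FMT, against 20.70, 13.38 and 16.20 on HFD. Control-FMT replicate 1 alone was low. *Cfd*, another fat cell gene, differed by −0.47, and by 0.15 without control-FMT replicate 1. The 2 testis genes among the members had a median of −0.58, and −0.36 without HFD replicate 3. Pancreatic enzyme genes summed to 76.41, 9380.27 and 816.08 FPKM with control-FMT, against 912.72, 2983.31 and 137.71 on HFD.

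**Figure D5:**
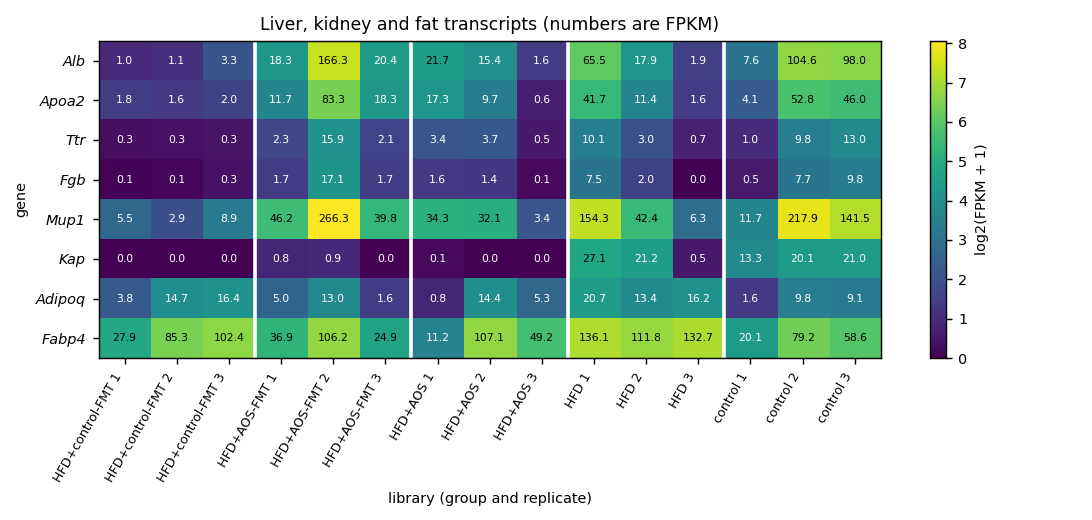
FPKM of 8 liver, kidney and fat genes (y axis) in 15 libraries (x axis), printed in each cell and coloured by log2(FPKM + 1). *Alb* is at 1.01 to 3.31 FPKM with control-FMT and at 65.51, 17.86 and 1.89 on HFD, where the third library is low for every liver gene shown.

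The 25 members past 1 in the higher direction include the 2 genes past the test, and 9 carried provisional symbols. *H2-Ea-ps*, *Ccl8* and *Gdpd3* are named after their values were seen. *H2-Ea-ps*, a class II gene annotated as a polymorphic pseudogene, had 527.28, 108.09 and 458.21 FPKM with control-FMT, against 30.09, 45.24 and 51.42 on HFD (limma adjusted p = 0.945). *H2-Eb1*, a class II beta chain named by the rule, had 376.00, 72.03 and 329.85 FPKM with control-FMT, against 163.75, 43.16 and 19.82 on HFD. *H2-Eb1* varied widely in both groups, which overlapped. *H2-Ea-ps* varied widely with control-FMT and less on HFD, and its groups did not overlap. Of the 11 class II presentation members 9 were lower. *Ccl8*, a monocyte chemokine, had 19.54, 6.57 and 4.23 FPKM with control-FMT, against 1.38, 1.57 and 2.93 on HFD. *Gdpd3*, a phosphodiesterase, had 0.78, 62.07 and 5.45 FPKM with control-FMT, against 0.15, 0.38 and 0.31 on HFD, so replicate 2 set most of its mean.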

How the data were processed

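RNA libraries from 1 ug of total spleen RNA were aligned by the authors with Bowtie 0.12.2 to mm10, per the submitters' processing notes. The deposited values were read as FPKM from the values: sums of FPKM times transcript length varied by 0.79% between libraries, against 7.55% for column totals, for the 97.1% of rows with a GENCODE symbol. No counting program, annotation or filter is named in the sources used here. All 18 columns were matched to samples.

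Values were analysed as log2(FPKM + 1) in R 4.3.3 with limma 3.58.1 and statmod 1.5.0, with a robust variance and a trend, in 1 fit to 6 groups of 3 libraries with 12 residual degrees of freedom. Rows whose mean reached 1 FPKM in any of the 6 groups entered the test, 12969 in all, of which 308 are no member. P-values were adjusted by Benjamini and Hochberg at 0.05. The fit was tested on simulated data with independent normal noise for each gene. Those data held no shifts shared by many genes and no lower bound on values, unlike the libraries. Figures were drawn with matplotlib 3.10.9 (Python 3.11.15, pandas 2.3.3, numpy 2.4.6). Positions came from GENCODE vM21 (GRCm38), promoters from RefSeq (GRCm38.p6).

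The members, the 54 gene lists and the tests were chosen with earlier results of these data known. The rule for named genes took 12 genes in each direction, past the test or else by smallest unadjusted p, where the 3 and 3 libraries stood apart and the higher mean reached 2 FPKM. From each list it took the first 4 members and the 2 with the smallest p, and any member of the 4 lists with the widest medians. It names more list genes than are printed. A list gene is not reported here. Alternatives covered pseudocount, filter, scaling, variance model, libraries in the fit and the replicate number as a block. Of the members, 19 carried a symbol turned into a date and 4 a duplicated symbol. The absolute depth is unknown, so the counting error of single values cannot be given.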

Additional observations from a re-analysis of the deposited data

Results flagged for a closer look

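The libraries of the 2 transplant groups were compared directly. *Dbp* was higher with control-FMT than with AOS-FMT on the diet, with 17.96, 21.41 and 16.34 FPKM with control-FMT, against 5.95, 4.68 and 7.12 with AOS-FMT. The log2 difference was 1.51 (limma adjusted p = 0.00245), higher in 3 of 3 libraries. It passed in all 28 alternatives, with differences of 1.37 to 1.64 and limma adjusted p of 0.000254 to 0.0456. The lowest adjusted p came with array weights, whose estimation stopped before it converged. Alternatives that left out a library of another group could change the adjusted p but not the difference. This comparison uses the same control-FMT libraries as the comparison with HFD. With no hour in the labels, hour of collection and transfer cannot be told apart here either.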

How the results depend on the processing

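Against HFD, 2 genes were higher and 0 lower. The higher count was 1 (*Dbp*) with a pseudocount of 0.1, with a mean of at least 5 FPKM and with the 6 libraries alone, and 0 to 2 when 1 library was left out, where the lower count was 0 to 2 (*Kap* and *Mup12* without HFD replicate 3, where *Tspan4* was the higher gene and *Dbp* and *Tmsb15b1* did not pass). With array weights it was 144 higher and 136 lower. These weights ran from 0.168 to 31.8 over the libraries and their estimation stopped before it converged. Against AOS-FMT, 1 gene was higher and 0 lower. The counts were 3 and 1 with the 6 libraries alone, 321 and 329 with array weights, 1 and 1 with the replicate block, and 1 to 3 and 0 to 4 when 1 library was left out. The causes were not tested. With the replicate number as a block, 2 genes were higher and 0 lower against HFD, with 868 genes at an unadjusted p under 0.05. Deviations of same-numbered libraries correlated at −0.01, 0.47 and 0.02 against HFD and at 0.51, 0.39 and −0.11 against AOS-FMT. Differently numbered libraries were not compared in this way, so whether the numbers pair the samples was not tested. *Per1* turned to −0.0909 with array weights, and to −0.0729 without HFD replicate 1. When 1 library was left out, log2 differences ran from −0.074 to 0.0765 for *Per1*, −0.176 to 0.32 for *Nfil3*, −0.84 to 0.149 for *Cfd* and −0.102 to 0.583 for *Trim10*. The haemoglobin difference ran from −1.6 to 6.69 points when 1 library was left out. Over the 28 alternatives *Dbp* passed in 23, and *Tmsb15b1* in 20 of the 27 that tested it. These include fits without a library of another group, which could not change either difference. In the 6 fits without a library of the compared groups, each gene passed in 1. Of the 54 list medians 27 changed sign in at least 1 alternative. No scaling moved the median of all genes by over 0.1.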
